A study of Mus musculus with 5 samples.

Results

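The lysosomal genes described here are 45 genes for soluble hydrolases, their activators and carriers, and proteins of the lysosomal membrane. They were picked by symbol from a fixed list of names, all 45 were found among the 27526 genes with a symbol in the authors' normalized table, and all 45 had enough counts to be tested. They comprise 12 proteases, 12 glycosidases, 5 sulfatases, 4 lipid hydrolases, 4 activators and carriers, and 8 membrane proteins. RNA was profiled from mouse leukaemia cells positive for Kit, the stem cell factor receptor, in which AML1-ETO9a, a shortened form of the leukaemia fusion of RUNX1 (AML1) and RUNX1T1 (ETO), drives the disease. There were 3 libraries labelled Plcg1 -/-, called deleted 2, deleted 4 and deleted 6 after their sample numbers, and 2 libraries labelled Plcg1 +/+, called wild-type 1 and wild-type 3. Plcg1 encodes phospholipase C-γ1, which cleaves a membrane lipid into second messengers, and the labels call its deletion conditional without naming the Cre line or the age of the animals. The labels place all 5 libraries in the AML1-ETO9a model, and the question named in the series title is whether these leukaemia stem cells need Plcg1 to self-renew.

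Lysosomes are acidic organelles in which hydrolases break down proteins, glycans and lipids delivered by endocytosis, phagocytosis and autophagy. Most soluble enzymes reach them by way of mannose 6-phosphate receptors, and a proton pump keeps the lumen acidic. Many of their genes respond together to transcription factors of the MiT/TFE family (TFEB, TFE3 and MITF), and in the blood system macrophages, osteoclasts and mast cells are rich in lysosomes or in granules that hold lysosomal enzymes.

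Gene counts per library were 53384359, 52560713 and 57133771 in deleted 2, 4 and 6, and 37306507 and 51682298 in wild-type 1 and 3. Values below are read counts expressed as CPM, at a library size adjusted by edgeR's TMM factors. A count of 3 corresponds to 0.0526 to 0.0723 CPM, a limit that covers counting error only. Plcg1 itself was at 53.0, 26.9 and 37.1 CPM in deleted 2, 4 and 6, against 22.1 and 34.0 CPM in wild-type 1 and 3. Gene totals include exons outside the deleted stretch and cannot check the deletion, so "deleted" and "wild-type" stand for the labels. Kit, which defines the labelled cells, was at 672, 304 and 3.08 CPM in deleted 2, 4 and 6, against 26.8 and 32.1 CPM in wild-type 1 and 3. Deleted 6 thus lacked most of the transcript of the receptor that its label names, and the proliferation marker Mki67 was low there too, at 171, 165 and 7.76 CPM in deleted 2, 4 and 6, against 229 and 272 CPM in wild-type 1 and 3. Runx1t1, which encodes the mouse ETO, had 6035, 3921 and 598 counts in deleted 2, 4 and 6, against 5 and 13 counts in wild-type 1 and 3. If reads of the fusion align to the mouse gene, the wild-type libraries thus go against the model that their labels name. Because deleted 6 stands apart, fold changes and list medians are given with and without it. Whether separate mice gave these libraries is not in the labels, so p-values speak only for the spread among these samples, and that spread may be technical.

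As a sum, the lysosomal genes were higher in each deleted library than in wild-type, by most in deleted 6 and by least in deleted 2. Together they took 3.42%, 5.235% and 10.51% of all gene counts in deleted 2, 4 and 6, against 2.725% and 2.94% in wild-type 1 and 3. Exact 95% intervals of these shares, which cover counting error only, were 3.4151% to 3.4248%, 5.2292% to 5.2413% and 10.499% to 10.515% in deleted 2, 4 and 6, against 2.7199% to 2.7304% and 2.9358% to 2.945% in wild-type 1 and 3. The share was highest in deleted 6, and no deleted library had a share as low as either wild-type one. Their summed level was 31987, 51941 and 135750 CPM in deleted 2, 4 and 6, against 24508 and 27374 CPM in wild-type 1 and 3. The log2 ratio of the group means was 1.5, and 0.69 without deleted 6. Leaving out Ctsd, the largest of the 45, the sums were 23624, 38936 and 91002 CPM in deleted 2, 4 and 6, against 20409 and 22824 CPM in wild-type 1 and 3. In bulk RNA, fewer cells of a type and less RNA per cell cannot be told apart.

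Across genes, the median log2 fold change of the 45, deleted minus wild-type, was 0.95, while that of all 16120 tested genes was 0.01. Without deleted 6 the medians were 0.32 for the 45 and -0.01 for 15787 tested genes. The log2 fold change was above 0 in 40 of the 45, where 50.6% of all tested genes had one above 0, and in 35 of the 45 without deleted 6, where 49.5% did. Single genes ran from -1.23 to 4.69 on the log2 scale. All 3 deleted libraries were above both wild-type ones in 21 of the 45 (46.7%). That held in 22.4% of all tested genes and in 26.8% of those averaging 50 CPM or more. In 3 of the 45 (6.67%) all 3 deleted libraries were below both wild-type ones, which 23.7% of all tested genes did, and in the other 21 the groups overlapped. Scaled by total gene counts instead of TMM, the median over all tested genes of the difference in mean log2 CPM was -0.22, against -0.02 with TMM. The same median over the 45 was 0.49 with total gene counts and 0.71 with TMM, and of the 45 Ppt1 alone turned its sign with that scaling.

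**Figure D1:**
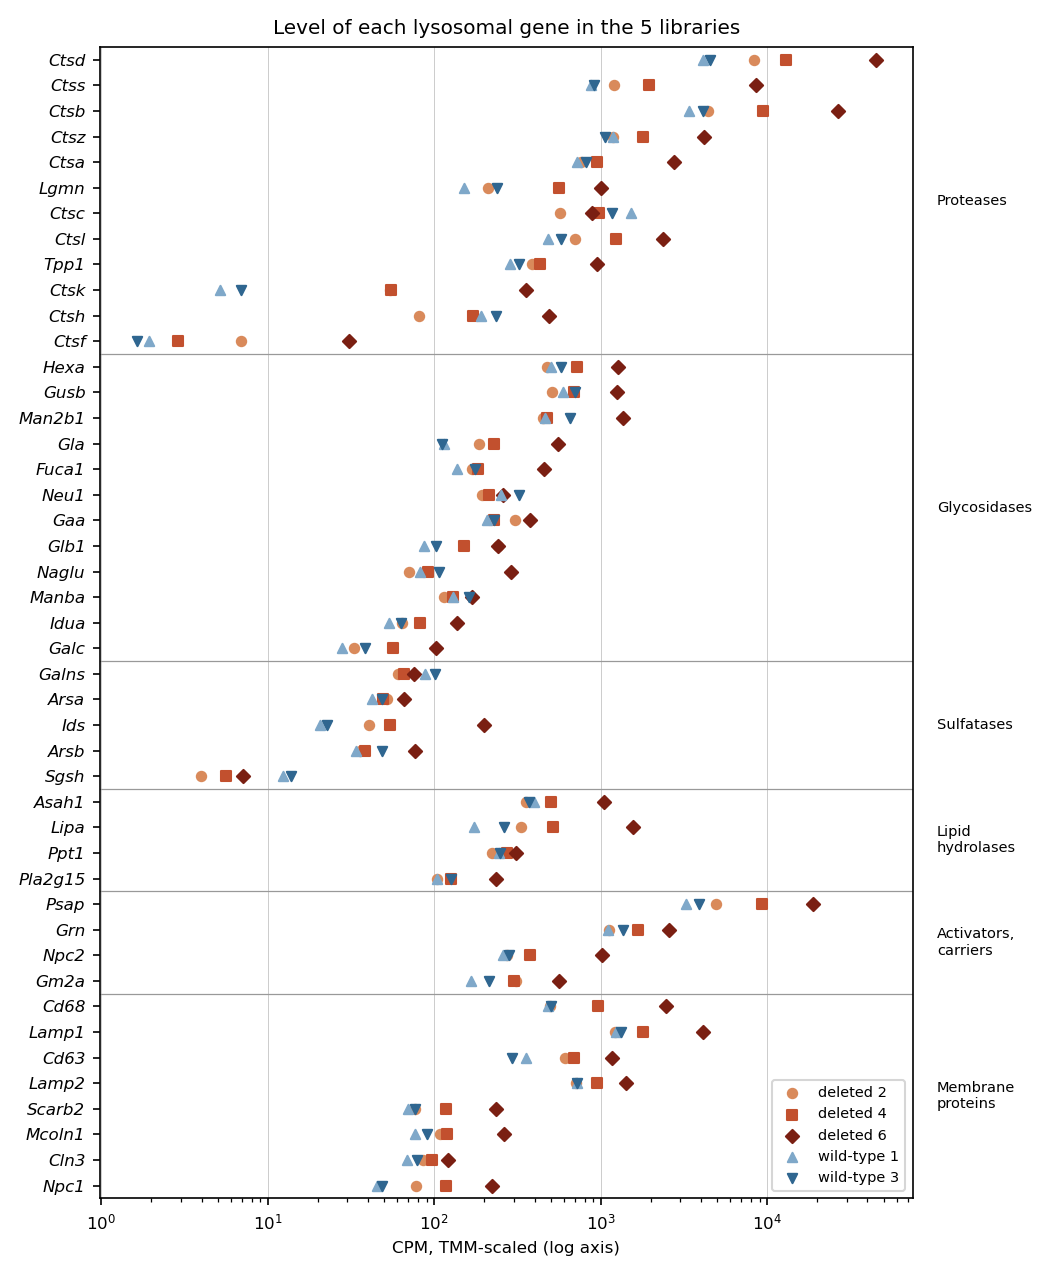
Level of each of the 45 lysosomal genes in CPM on a log axis, with 1 marker per library, grouped by role and ordered by mean level within a role. Deleted 6 (dark diamonds) is the rightmost library for 41 genes; Ctsc, Neu1, Galns and Sgsh are the exceptions.

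No single lysosomal gene passed the test across all 5 libraries. edgeR's quasi-likelihood test with Benjamini-Hochberg adjustment over all 16120 genes called 0 genes in either direction, and the adjusted p of the 45 ran from 0.22 to 0.894. At an unadjusted p under 0.05, 8 of the 45 were higher (17.8%) and 2 lower (4.44%), where 9.44% and 5.42% of all tested genes were. Without deleted 6 the same test called 8 of the 45 higher (17.8%) and 2 lower (4.44%), where 7.89% and 5.07% of all tested genes were called. The 8 that rose in deleted 2 and 4 were Ctsk, Ctsd, Gla, Glb1, Ids, Gm2a, Cd63 and Npc1, and the 2 that fell were Sgsh and Galns. The share of lower calls was thus near that of all genes. DESeq2 on all 5 libraries called 5 of the 45 higher, Ctsk, Glb1, Cd63, Ctsd and Ctsf, and 1 lower, Sgsh, where it called 5.75% of genes higher and 3.05% lower. limma-voom with sample quality weights called 10 higher and 2 lower, where it called 7.63% and 5.87%. With 3 libraries against 2, exact permutation cannot go below a p of 0.1, so no gene was tested that way.

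**Figure D2:**
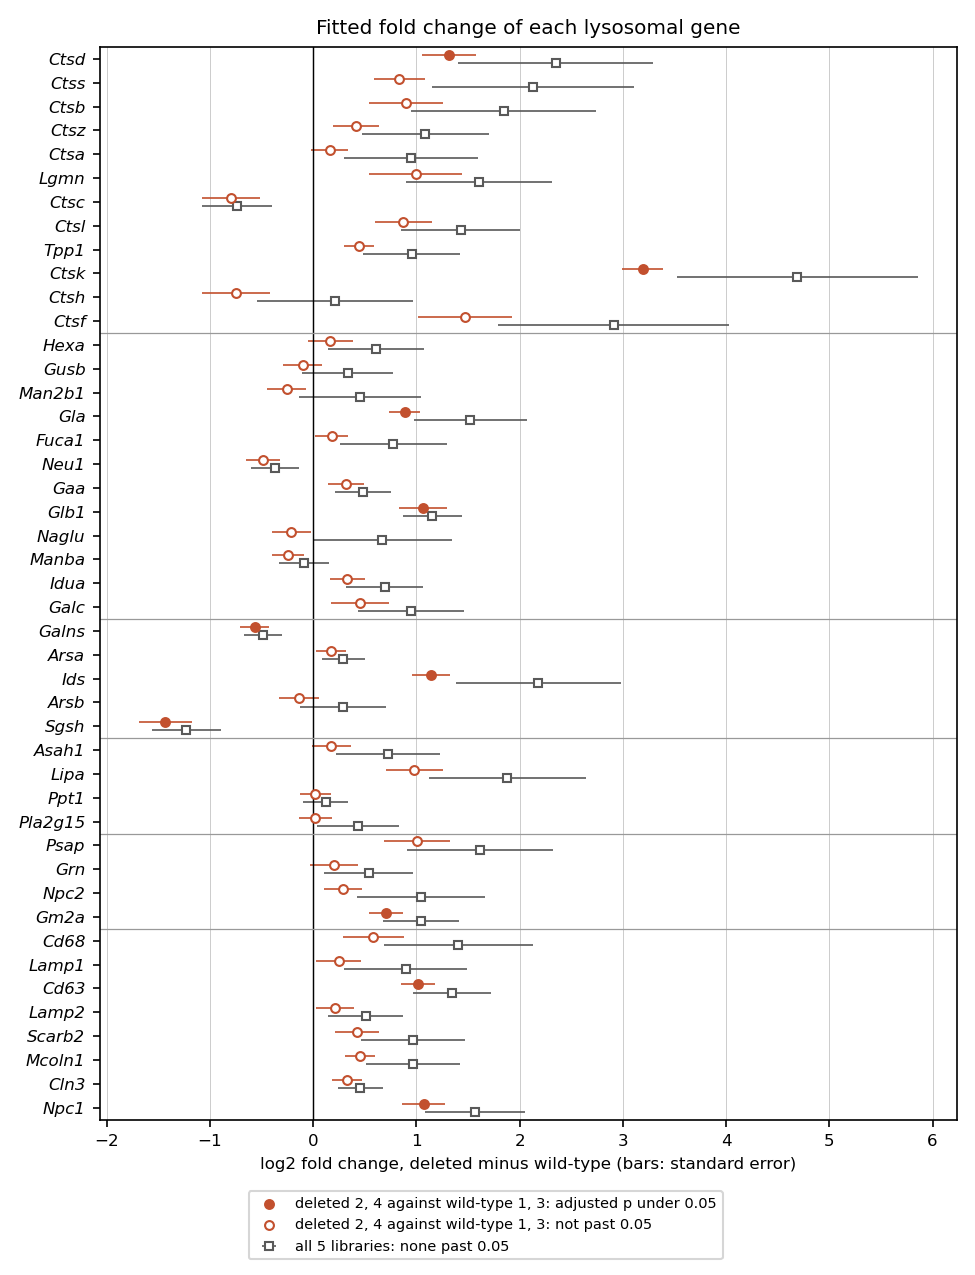
Fitted log2 fold change, deleted minus wild-type, of each lysosomal gene with its standard error (bars), without deleted 6 (circles, filled where the adjusted p is under 0.05) and with all 5 libraries (squares). The 8 filled circles on the right and the 2 on the left are the calls; with all 5 libraries the fold changes of most genes are larger, the errors wider and no gene passes.

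The sequencing lane named with each library touches all of these values, because deleted 6 alone was run in lane 5 and wild-type 1 alone in lane 3. Lane 4 held deleted 2, deleted 4 and wild-type 3. Within lane 4 the median log2 fold change of the 45 was 0.23, and edgeR, which there has to assume that the lone wild-type library varies as the deleted ones do, called 1 of the 45 higher, Ctsk, and 0 lower, where it called 1.26% and 0.779% of all genes. Deleted 6 and lane 5 cannot be told apart.

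The order of the deleted libraries was shared by most of the genes. Deleted 6 held the highest value of the 5 libraries in 41 of the 45 (91.1%), as 36.2% of all tested genes did and 40.8% of those averaging 50 CPM or more. It was the lowest in 0 of the 45, where 37.9% of all tested genes had their lowest value in it. In 21 of the 45 (46.7%) deleted 6 was more than 2 times the highest other library, which 8.77% of all tested genes reached. Deleted 4 lay above deleted 2 in 40 of the 45, where 49.7% of all tested genes had that order. The full order of deleted 6 above 4 above 2 above both wild-type libraries held in 16 of the 45 (35.6%) and in 11.4% of all tested genes. The median log2 difference of the 45 from the wild-type mean was 0.08, 0.49 and 1.62 in deleted 2, 4 and 6. It was -0.10 and 0.10 in wild-type 1 and 3, so by that median deleted 2 lay between them. The median of all tested genes stayed between -0.03 and 0.02 in every library. The lowest library was wild-type 1 for 27 genes, deleted 2 for 14 and wild-type 3 for 4.

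**Figure D3:**
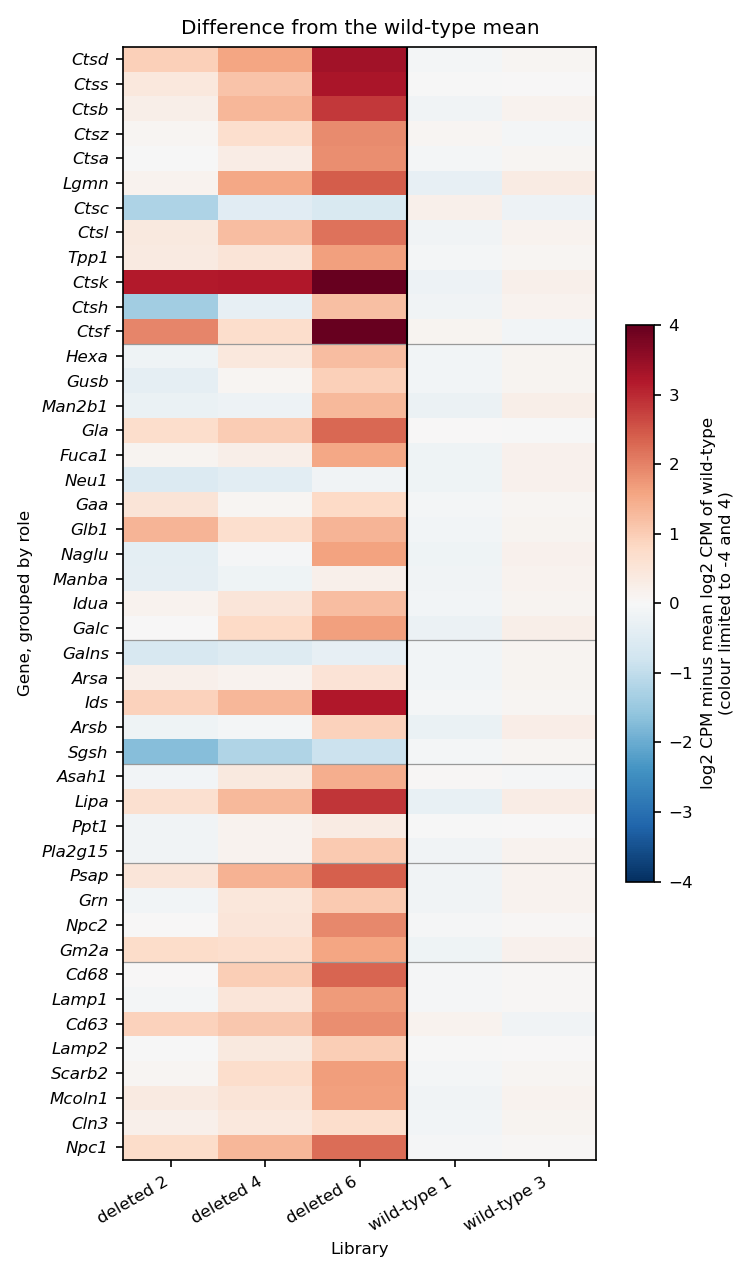
Log2 CPM of each lysosomal gene in each library minus its wild-type mean, grouped by role, with red above and blue below the wild-type mean and colour limited to -4 and 4, which 2 values pass. Deleted 6 is the reddest column, deleted 2 the palest deleted one for most genes, and Ctsc, Neu1, Galns and Sgsh are blue in all 3 deleted libraries.

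Summed macrophage and osteoclast markers stood in the same order of libraries. In the deleted libraries 1 gene made up most of each sum, Gpnmb for macrophages and Atp6v0d2 for osteoclasts. Each order thus rests largely on that gene. The summed level of 16 macrophage markers was 6813, 12380 and 23980 CPM in deleted 2, 4 and 6, against 4444 and 4742 CPM in wild-type 1 and 3. Gpnmb, a glycoprotein of lysosomes and melanosomes, made up most of it, and the 15 others summed to 1167, 2494 and 3173 CPM in deleted 2, 4 and 6, against 1037 and 1362 CPM in wild-type 1 and 3. Without Gpnmb, then, deleted 2 lay between the wild-type libraries. Single macrophage markers went both ways: the pan-macrophage receptor Adgre1 was at 362, 628 and 731 CPM in deleted 2, 4 and 6, against 195 and 244 CPM in wild-type 1 and 3, while the Fc receptor Fcgr1 was at 3.36, 16.8 and 4.03 CPM in deleted 2, 4 and 6, against 26.8 and 32.8 CPM in wild-type 1 and 3. The mannose receptor Mrc1 was at 211, 424 and 219 CPM in deleted 2, 4 and 6, against 18.3 and 41.5 CPM in wild-type 1 and 3 (edgeR adjusted p = 0.00714 without deleted 6). The scavenger receptors Marco and Cd163 were under 1 CPM in every library except wild-type 3. The sum of 10 dendritic cell markers was 258, 285 and 1544 CPM in deleted 2, 4 and 6, against 254 and 307 CPM in wild-type 1 and 3, but its members went both ways. Itgax, the integrin CD11c, was at 119, 97.5 and 756 CPM in deleted 2, 4 and 6, against 11.6 and 8.25 CPM in wild-type 1 and 3, and the class II gene H2-Ab1 at 94.4, 107 and 659 CPM in those libraries, above 26.4 and 33.3 CPM in wild-type 1 and 3. Irf8, a factor of monocytes and dendritic cells, was lower in every deleted library, at 35.5, 69.9 and 114 CPM in deleted 2, 4 and 6, against 209 and 256 CPM in wild-type 1 and 3. The sum of monocyte markers rose across deleted 2, 4 and 6 too, but no deleted library was above both wild-type ones. It was 1738, 2436 and 3401 CPM in deleted 2, 4 and 6, against 2892 and 3655 CPM in wild-type 1 and 3. Mast cell and basophil markers ran against that order of the deleted libraries, at 10950, 5029 and 35.7 CPM in deleted 2, 4 and 6, against 98.8 and 168 CPM in wild-type 1 and 3. Neutrophil markers were lowest in deleted 6, at 15460, 17760 and 1401 CPM in deleted 2, 4 and 6, against 19380 and 21190 CPM in wild-type 1 and 3. Stem and progenitor markers summed to 1200, 689 and 8.10 CPM in deleted 2, 4 and 6, against 619 and 629 CPM in wild-type 1 and 3. Kit was the largest part of that sum in deleted 2 and 4, and the 10 genes went both ways. Without deleted 6 edgeR called 3 of the 10 higher, Kit, Cd34 and Ly6a, and 4 lower, Meis1, Hoxa9, Myb and Mecom. Of all tested genes it called 7.89% higher and 5.07% lower. The part of these cell types in the lysosomal levels was not tested.

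The MiT/TFE factors bind an E-box, and the promoters of several of the genes hold it. RefSeq promoter windows, from 250 bases before to 50 after each start (GRCm38.p6), matched 40 of the 45 genes by symbol. The core CACGTG, which reads the same on both strands, was in 14 of the 40 (35%), and in 8.09% of 27025 genes of the table. The longer TCACGTGA, which contains that core, was in 12.5% of the 40 and 1.12% of all genes. The full palindrome of the CLEAR motif, which contains both, was in 1 of the 40, Cln3 (2.5%), and in 0.37% of all genes. Lists described below held the core as well: 39.1% of 23 genes that sort enzymes to the lysosome and 30.8% of 13 proton pump genes. It was in 29.4% of 17 MiT/TFE and nutrient-sensing genes, 16.7% of 18 further hydrolases and 19.2% of 26 further membrane proteins. Of the 23 sorting genes 17.4% held the full palindrome. Sgsh, which fell without deleted 6, has a core 26 bases before its start. The 14 genes with the core had a median log2 fold change of 0.96, and the 26 without it 0.86, while without deleted 6 the medians were 0.39 and 0.31. All 3 deleted libraries were above both wild-type ones in 9 of the 14 and in 10 of the 26. That held in 22.4% of all tested genes, and the difference between both sets was not tested. The windows that follow belong to genes with 2 or more copies of the core, picked to show an enzyme that rose without deleted 6 (Ctsd, Gla), the calcium channel Mcoln1 and the membrane protein Lamp1. Each is the 250 bases before the RefSeq start, 5′ to 3′ on the gene's strand, with every TCACGTGA or CACGTG in capitals. They lie at chr7:142387828-142388077 on the minus strand (Ctsd), chrX:134601006-134601255 on the minus strand (Gla), chr8:3500269-3500518 on the plus strand (Mcoln1) and chr8:13158911-13159160 on the plus strand (Lamp1). The cores are centred 242 and 95 bases before the start of Ctsd, 224 and 191 before that of Gla, 68 and 42 before that of Mcoln1, and 58, 42, 25 and 12 before that of Lamp1. GENCODE models of Ctsd, Gla and Mcoln1 begin inside these windows. A match describes the letters and is no evidence of binding.
Ctsd: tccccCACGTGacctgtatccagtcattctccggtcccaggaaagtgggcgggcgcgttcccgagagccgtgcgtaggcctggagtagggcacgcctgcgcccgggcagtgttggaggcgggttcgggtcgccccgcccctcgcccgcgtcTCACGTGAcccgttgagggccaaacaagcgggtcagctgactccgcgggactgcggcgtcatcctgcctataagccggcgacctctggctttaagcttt
Gla: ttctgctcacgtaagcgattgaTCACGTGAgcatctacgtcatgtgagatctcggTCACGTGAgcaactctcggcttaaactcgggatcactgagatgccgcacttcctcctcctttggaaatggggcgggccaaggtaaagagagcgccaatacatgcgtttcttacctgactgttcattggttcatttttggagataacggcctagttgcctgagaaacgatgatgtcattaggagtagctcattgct
Mcoln1: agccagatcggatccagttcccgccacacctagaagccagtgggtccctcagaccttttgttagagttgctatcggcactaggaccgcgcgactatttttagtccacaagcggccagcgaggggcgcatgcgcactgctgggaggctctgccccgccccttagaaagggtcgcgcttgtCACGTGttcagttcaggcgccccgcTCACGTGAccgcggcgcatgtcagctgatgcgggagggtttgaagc
Lamp1: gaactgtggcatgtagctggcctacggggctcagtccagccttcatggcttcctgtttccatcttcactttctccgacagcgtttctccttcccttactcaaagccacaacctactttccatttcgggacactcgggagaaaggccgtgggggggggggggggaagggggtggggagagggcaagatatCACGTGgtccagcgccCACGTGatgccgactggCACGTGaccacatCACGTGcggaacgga

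The proteases carried most of the summed level. The 12 summed to 17930, 30550 and 92800 CPM in deleted 2, 4 and 6, against 12890 and 14010 CPM in wild-type 1 and 3. Each of the 3 deleted libraries was above both wild-type ones in 8 of the 12 and below in 1. Of all tested genes 22.4% were above and 23.7% below in that way. Without deleted 6 edgeR called 2 of the 12 higher, Ctsd and Ctsk, where it called 7.89% of all tested genes. Ctsd (mm10 chromosome 7, 142375911 to 142388038, minus strand) encodes the aspartic protease cathepsin D. The gene stood at 8363, 13005 and 44744 CPM in deleted 2, 4 and 6, against 4099 and 4550 CPM in wild-type 1 and 3. All 3 deleted libraries were above both wild-type ones, and deleted 6 was 3.44 times the highest other library. Ctsd alone made up 26.1%, 25.0% and 33.0% of the summed level of the 45 in deleted 2, 4 and 6, against 16.7% and 16.6% in wild-type 1 and 3. Per kilobase of exon it was the most abundant of the 45 in every library, averaging 6360 CPM per kilobase over the 5. Its log2 fold change was 2.35 ± 0.94 (SE; adjusted p = 0.341, edgeR), and 1.32 ± 0.26 without deleted 6 (edgeR adjusted p = 0.0234). In GENCODE a gene model named Gm49369 shares 34.4% of the exon bases of Ctsd on the same strand, so reads there could have been counted as ambiguous.

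Ctsk had the largest log2 fold change of the 45, from a low level in wild-type. It encodes cathepsin K, the collagen-degrading cysteine protease best known from osteoclasts (chromosome 3, 95499256 to 95509362, plus strand). Its values were 54.1, 55.3 and 357 CPM in deleted 2, 4 and 6, against 5.18 and 6.86 CPM in wild-type 1 and 3. Both groups were far apart: deleted 2 and 4 were nearly alike, and deleted 6 was 6.46 times the higher of them. The log2 fold change was 4.69 ± 1.17 (SE; adjusted p = 0.222, edgeR) with means of 156 ± 175 CPM in deleted (SD, n = 3) and 6.02 ± 1.19 CPM in wild-type (SD, n = 2). Ctsk rose without deleted 6, by 3.19 ± 0.20 on the log2 scale (edgeR adjusted p = 0.000797), and was the single member called within lane 4 (log2 fold change 3.00, edgeR adjusted p = 0.0326). By level per kilobase it ranked 29, 31 and 16 of the 45 in deleted 2, 4 and 6, against 42 and 40 in wild-type 1 and 3. Of 9 osteoclast markers, which do not include Ctsk, the sum was 615, 763 and 3314 CPM in deleted 2, 4 and 6, against 194 and 237 CPM in wild-type 1 and 3. In the deleted libraries most of that was Atp6v0d2, a proton pump subunit of osteoclasts and macrophages. Atp6v0d2 was at 480, 604 and 3012 CPM in deleted 2, 4 and 6, against 74.4 and 60.7 CPM in wild-type 1 and 3. The fusion protein gene Dcstamp had the same order, at 6.15, 8.64 and 71.2 CPM in deleted 2, 4 and 6, against 0.530 and 0.396 CPM in wild-type 1 and 3. The defining osteoclast genes Calcr, Oscar and Ocstamp were under 1 CPM in every library. Acp5, tartrate-resistant acid phosphatase, was at 4.84, 9.21 and 14.5 CPM in deleted 2, 4 and 6, against 10.9 and 16.4 CPM in wild-type 1 and 3. Without deleted 6 edgeR called 2 of 7 tested osteoclast markers higher, Atp6v0d2 and Dcstamp, and 1 lower, Mmp9. Of all tested genes it called 7.89% higher and 5.07% lower. Mmp9 was at 7.8, 9.2 and 8.2 CPM in deleted 2, 4 and 6, against 22.85 and 57.2 CPM in wild-type 1 and 3 (edgeR adjusted p = 0.019 without deleted 6).

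The other cysteine cathepsins of the endopeptidase and carboxypeptidase type were mostly in the same order of libraries, without passing edgeR's test. Ctsb, cathepsin B, was at 4421, 9429 and 26505 CPM in deleted 2, 4 and 6, against 3366 and 4127 CPM in wild-type 1 and 3. Ctss, cathepsin S, which trims the invariant chain of class II histocompatibility molecules, was at 1195, 1956 and 8552 CPM in deleted 2, 4 and 6, against 875 and 907 CPM in wild-type 1 and 3. In both genes the groups did not overlap, and deleted 6 was 2.81 times (Ctsb) and 4.37 times (Ctss) the highest other library. Averaged per kilobase over the 5 libraries, Ctss held 1986 and Ctsb 1581 CPM per kilobase. Their rank among the 45 was 3, 4 and 3 (Ctss) and 5, 3 and 4 (Ctsb) in deleted 2, 4 and 6, against 4 and 5 (Ctss) and 5 and 4 (Ctsb) in wild-type 1 and 3, where Ctsz ranked 3. Ctsl, cathepsin L, was at 697, 1229 and 2353 CPM in deleted 2, 4 and 6, against 479 and 581 CPM in wild-type 1 and 3. Ctsz, the carboxypeptidase cathepsin Z (1306 CPM per kilobase on average), was at 1191, 1788 and 4180 CPM in deleted 2, 4 and 6, against 1189 and 1061 CPM in wild-type 1 and 3. The groups were apart for Ctsl, and for Ctsz deleted 2 and wild-type 1 were almost level. The scarce Ctsf, cathepsin F, the lowest of the 45 per kilobase at 1.74 CPM per kilobase, was at 6.89, 2.91 and 30.6 CPM in deleted 2, 4 and 6, against 1.93 and 1.64 CPM in wild-type 1 and 3. It was the 1 gene of these 5 in which deleted 2 exceeded deleted 4. Log2 fold changes of these 5 ran from 1.08 (Ctsz) to 2.91 (Ctsf) with all libraries and from 0.42 (Ctsz) to 1.47 (Ctsf) without deleted 6, and the adjusted p without deleted 6 from 0.077 (Ctss) to 0.288 (Ctsz, edgeR).

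Not all proteases were higher in the deleted libraries. Ctsc encodes cathepsin C, the dipeptidyl peptidase that activates granule serine proteases of neutrophils and mast cells. It had 566, 970 and 882 CPM in deleted 2, 4 and 6, against 1527 and 1161 CPM in wild-type 1 and 3. All deleted libraries lay below both wild-type ones, with a log2 fold change of -0.74 ± 0.34 with all libraries and -0.79 ± 0.28 without deleted 6 (SE; edgeR adjusted p = 0.373 with all libraries and 0.121 without deleted 6). Ctsh, the aminopeptidase cathepsin H, had a log2 fold change of 0.21 with all 5 libraries and -0.75 without deleted 6, with deleted 2 and 4 below both wild-type libraries and deleted 6 above them. The cathepsin-processing endopeptidase Lgmn, the tripeptidyl peptidase Tpp1 and the carboxypeptidase Ctsa had log2 fold changes of 1.60, 0.96 and 0.95, and of 0.99, 0.44 and 0.16 without deleted 6. Of these 3, Tpp1 had groups that did not overlap.

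**Figure D4:**
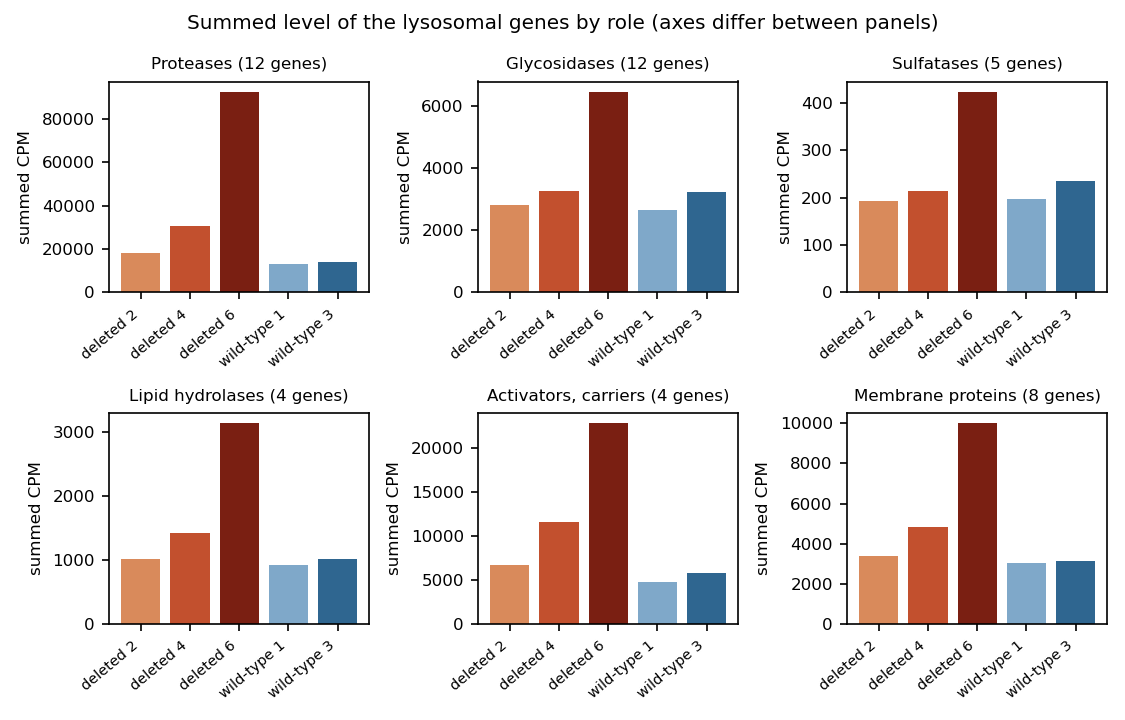
Summed CPM of the lysosomal genes of each role in each library (bars start at 0, axes differ between panels, 1 bar is 1 library). Bars of proteases and of activators and carriers step up across deleted 2, 4 and 6, while for glycosidases and sulfatases deleted 2 and 4 lie close to the wild-type bars and deleted 6 alone stands well above them.

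The glycosidases, which trim sugars from glycoproteins and glycolipids, were level with wild-type in deleted 2 and 4 as a sum. The 12 summed to 2814, 3244 and 6461 CPM in deleted 2, 4 and 6, against 2652 and 3234 CPM in wild-type 1 and 3. Each of the 3 deleted libraries was above both wild-type ones in 4 of the 12, Gaa, Gla, Glb1 and Idua, and below in 0. Of all tested genes 22.4% were above and 23.7% below in that way. Without deleted 6 edgeR called Gla and Glb1 higher. Gla (chromosome X, 134588149 to 134601125, minus strand) encodes α-galactosidase A, which removes terminal galactose from globotriaosylceramide. Its level was 184, 229 and 557 CPM in deleted 2, 4 and 6, against 115 and 111 CPM in wild-type 1 and 3, and the groups were apart. The rise without deleted 6 was 0.89 ± 0.15 on the log2 scale (SE; edgeR adjusted p = 0.0143), and with all 5 libraries the log2 fold change was 1.52 ± 0.55 (edgeR adjusted p = 0.313). Glb1 (chromosome 9, 114401076 to 114474898, plus strand) encodes the β-galactosidase that cleaves GM1 ganglioside and is stained as a mark of senescent cells. The gene stood at 241, 151 and 241 CPM in deleted 2, 4 and 6, against 86.8 and 102 CPM in wild-type 1 and 3. Deleted 2 and 6 were level, unlike in most of the 45, and Glb1 had the smallest unadjusted p of them with all libraries. The log2 fold change was 1.16 ± 0.28 (SE; adjusted p = 0.22, edgeR), and 1.06 ± 0.23 without deleted 6 (edgeR adjusted p = 0.0323). Tmppe shares 5.5% of the exon bases of Glb1 on the same strand.

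Neu1, the sialidase that works in a complex with Glb1 and Ctsa, had the opposite order of groups without a clean split. Its values were 194, 214 and 260 CPM in deleted 2, 4 and 6, against 253 and 323 CPM in wild-type 1 and 3. Deleted 6 lay between both wild-type libraries, and the log2 fold change was -0.37 ± 0.23 (SE; adjusted p = 0.47, edgeR). The 3 genes of that complex had log2 fold changes of 1.16 (Glb1), 0.95 (Ctsa) and -0.37 (Neu1), and of 1.06, 0.16 and -0.49 without deleted 6. Of the other glycosidases, Galc, Fuca1, Idua, Naglu, Hexa, Gaa, Man2b1 and Gusb had log2 fold changes between 0.33 and 0.95, and Manba had -0.09. Without deleted 6 the range over these 9 was -0.26 (Man2b1) to 0.45 (Galc). In Man2b1, Naglu and Gusb, which act on mannose, N-acetylglucosamine and glucuronic acid, the sign turned without deleted 6, to -0.26, -0.21 and -0.10.

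The sulfatases, which remove sulfate from glycosaminoglycans and sulfatide, split by gene. The 5 summed to 193, 214 and 425 CPM in deleted 2, 4 and 6, against 197 and 234 CPM in wild-type 1 and 3. All 3 deleted libraries were above both wild-type ones in Ids and Arsa and below them in Sgsh and Galns, while Arsb overlapped. Ids (chromosome X, 70343069 to 70365084, minus strand) encodes iduronate 2-sulfatase, which acts on heparan and dermatan sulfate. It had 40.7, 54.0 and 200 CPM in deleted 2, 4 and 6, against 20.5 and 22.8 CPM in wild-type 1 and 3. Both groups were apart and deleted 6 was 3.70 times deleted 4. Ids rose by 1.14 ± 0.19 on the log2 scale without deleted 6 (SE; edgeR adjusted p = 0.0123), and had 2.18 ± 0.80 with all libraries (edgeR adjusted p = 0.316).

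Sgsh (chromosome 11, 119343425 to 119355536, minus strand), the sulfamidase of heparan sulfate, was at 3.98, 5.59 and 7.10 CPM in deleted 2, 4 and 6, against 12.3 and 13.7 CPM in wild-type 1 and 3. Each of the 3 deleted libraries was below both wild-type libraries, with means of 5.55 ± 1.56 CPM in deleted (SD, n = 3) and 13.01 ± 1.04 CPM in wild-type (SD, n = 2). Sgsh fell by 1.43 ± 0.26 on the log2 scale without deleted 6 (SE; edgeR adjusted p = 0.0162), and had -1.23 ± 0.33 with all 5 libraries (edgeR adjusted p = 0.244). The kits do not mark strand, and Card14 on the opposite strand shares 21.6% of the exon bases of Sgsh. Card14 had at most 92 counts in a library, which reached 29.3% of the counts of Sgsh. Galns (chromosome 8, 122578242 to 122611463, minus strand), which removes sulfate from keratan and chondroitin sulfate, was at 60.3, 66.1 and 75.8 CPM in deleted 2, 4 and 6, against 87.9 and 101 CPM in wild-type 1 and 3. It fell by 0.57 ± 0.14 on the log2 scale without deleted 6 (SE; edgeR adjusted p = 0.0456), and had -0.49 ± 0.18 with all 5 libraries (adjusted p = 0.324), with all deleted libraries below both wild-type ones. In both genes deleted 6 was the deleted library closest to wild-type. So 2 enzymes of heparan sulfate breakdown, Ids and Sgsh, were called in opposite directions in the same fit.

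Among lipid hydrolases, activators and carriers the values were highest in deleted 6 for all 8 genes, and edgeR called 1 of them, Gm2a, without deleted 6. Lipa, the acid lipase that frees cholesterol and fatty acids from lipoprotein lipids, was at 332, 520 and 1552 CPM in deleted 2, 4 and 6, against 173 and 263 CPM in wild-type 1 and 3. The groups were apart, with a log2 fold change of 1.88 ± 0.76 with all libraries and 0.98 ± 0.28 without deleted 6 (SE; edgeR adjusted p = 0.342 with all libraries and 0.0681 without deleted 6). The acid ceramidase Asah1, the phospholipase Pla2g15 and the thioesterase Ppt1 had log2 fold changes of 0.73, 0.44 and 0.12, and of 0.17, 0.02 and 0.02 without deleted 6, and in all 3 the groups overlapped. Psap encodes the precursor of the saposins, which present sphingolipids to their hydrolases. Its level was 4948, 9303 and 18770 CPM in deleted 2, 4 and 6, against 3265 and 3903 CPM in wild-type 1 and 3. The groups were apart, and in every library Psap ranked second of the 45 per kilobase, after Ctsd, averaging 2929 CPM per kilobase. Its log2 fold change was 1.62 ± 0.71 (SE; adjusted p = 0.359, edgeR), and 1.00 ± 0.32 without deleted 6 (edgeR adjusted p = 0.0907).

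Gm2a (chromosome 11, 55098115 to 55113029, plus strand), the activator that lifts GM2 ganglioside out of the membrane for hexosaminidase A, was at 311, 302 and 561 CPM in deleted 2, 4 and 6, against 166 and 212 CPM in wild-type 1 and 3. The groups were apart, deleted 2 and 4 were level, and Gm2a rose by 0.71 ± 0.16 on the log2 scale without deleted 6 (SE; edgeR adjusted p = 0.0351), and had 1.05 ± 0.37 with all libraries (adjusted p = 0.307). Hexa, the enzyme it serves, had 0.17 ± 0.22 in that fit (edgeR adjusted p = 0.683). Grn, progranulin, which is processed in lysosomes and averaged 450 CPM per kilobase, was at 1121, 1684 and 2553 CPM in deleted 2, 4 and 6, against 1103 and 1355 CPM in wild-type 1 and 3. Deleted 2 lay between the wild-type libraries there, and the log2 fold change was 0.54 with all libraries and 0.20 without deleted 6. Npc2 and Npc1 pass cholesterol on from the lumen to the membrane, and they differed in the fit without deleted 6: the log2 fold change was 0.29 ± 0.18 (SE; adjusted p = 0.375, edgeR) for Npc2 and 1.07 ± 0.21 (edgeR adjusted p = 0.0224) for Npc1, which had 1.57 ± 0.48 with all libraries (adjusted p = 0.281). The difference between both genes was not tested.

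All 8 membrane proteins were highest in deleted 6. They summed to 3384, 4852 and 10020 CPM in deleted 2, 4 and 6, against 3053 and 3142 CPM in wild-type 1 and 3. All 3 deleted libraries were above both wild-type ones in 4 of the 8, Cd63, Npc1, Mcoln1 and Cln3. That held in 22.4% of all tested genes. Without deleted 6 edgeR called Cd63 and Npc1. Cd63 (chromosome 10, 128900989 to 128912822, plus strand), a tetraspanin of lysosomes, of secretory granules and of exosomes, was at 612, 690 and 1176 CPM in deleted 2, 4 and 6, against 358 and 293 CPM in wild-type 1 and 3. The groups were apart, and Cd63 rose by 1.01 ± 0.17 on the log2 scale without deleted 6 (SE; edgeR adjusted p = 0.0121). With all 5 libraries it had 1.35 ± 0.38 (edgeR adjusted p = 0.257). Npc1, the membrane partner of Npc2 in cholesterol export, was at 77.7, 117 and 221 CPM in deleted 2, 4 and 6, against 45.3 and 48.4 CPM in wild-type 1 and 3, again with no overlap. Rmc1 on the opposite strand shares 4.5% of the exon bases of Npc1, and its own counts reached 131% of those of Npc1.

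The abundant coat proteins of the membrane were high in deleted 4 and 6 but not in deleted 2. Lamp1, a heavily glycosylated protein that lines the membrane, was at 1213, 1795 and 4129 CPM in deleted 2, 4 and 6, against 1232 and 1325 CPM in wild-type 1 and 3. Cd68, a relative of Lamp1 found mostly in macrophages, was at 497, 967 and 2451 CPM in deleted 2, 4 and 6, against 482 and 505 CPM in wild-type 1 and 3. In both genes deleted 2 was close to wild-type 1, and deleted 4 and 6 were above both wild-type libraries, with adjusted p of 0.496 for Lamp1 and 0.408 for Cd68 (edgeR, all libraries). The log2 fold change of Lamp1 was 0.90 with all libraries and 0.25 without deleted 6, and that of Cd68 1.40 and 0.58. Per kilobase they averaged 725 (Lamp1) and 779.9 (Cd68) CPM per kilobase. Lamp2, the glucocerebrosidase receptor Scarb2, the calcium channel Mcoln1 and Cln3 had log2 fold changes of 0.51, 0.97, 0.96 and 0.46 with all libraries, and of 0.21, 0.43, 0.46 and 0.32 without deleted 6.

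The rest of the lysosomal machinery was followed with lists that hold none of the 45. Of the proton pump all 18 tested subunits and accessory genes had a log2 fold change above 0, where 50.6% of all tested genes did. Their median was 0.90, and 0.42 without deleted 6. In 15 of 18 all 3 deleted libraries were above both wild-type ones, which held in 22.4% of all tested genes. Without deleted 6, edgeR called 2 of the 18 higher and 0 lower, where 7.89% and 5.07% of all tested genes were called. Those were Atp6v0d2, which rose by 3.02 ± 0.19 on the log2 scale (SE; edgeR adjusted p = 0.000799), and Atp6v0a1, a membrane subunit, at 0.98 ± 0.24 (adjusted p = 0.0448). Atp6v1h, a cytosolic subunit, had 0.53 ± 0.14 (adjusted p = 0.052). Of 31 further membrane proteins 7 were called higher and 1 lower in that fit, with a median log2 fold change of 0.72 with all libraries and 0.35 without deleted 6. The calcium channels Mcoln2 and Mcoln3, relatives of Mcoln1, had the smallest p there. Mcoln2 was at 59.6, 81.7 and 128 CPM in deleted 2, 4 and 6, against 13.6 and 15.6 CPM in wild-type 1 and 3, and rose by 2.28 ± 0.20 on the log2 scale without deleted 6 (adjusted p = 0.00169). Mcoln3 was at 7.83, 9.46 and 53.2 CPM in deleted 2, 4 and 6, against 0.0964 and 0.360 CPM in wild-type 1 and 3 (adjusted p = 0.00262 without deleted 6). Mcoln1 itself had 0.46 ± 0.15 in that fit (adjusted p = 0.0937). The gene called lower was Laptm4b, a multi-pass protein of late endosomes, at -0.95 ± 0.19 (adjusted p = 0.0227).

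Against the same shares of all tested genes, 7.89% higher and 5.07% lower, the counts of the other lists were as follows. Of 30 further hydrolases 7 were called higher and 3 lower without deleted 6, with a median log2 fold change of 0.53 with all libraries and 0.10 without deleted 6. Aga, which cleaves the bond between asparagine and glycans, rose by 0.58 ± 0.13 on the log2 scale in that fit (SE; edgeR adjusted p = 0.0351). The acid phosphatase Acpp fell by 1.58 ± 0.20 (adjusted p = 0.00523) and the carboxypeptidase Cpq by 1.48 ± 0.33 (adjusted p = 0.0329). Genes that sort enzymes to the lysosome had a median log2 fold change of 0.27 over 30 genes, and 0.16 without deleted 6, and 2 were called each way without deleted 6. The coat adaptor Gga2 rose by 0.51 ± 0.12 (adjusted p = 0.0423), while the adaptor subunit Ap3s1 fell by 0.66 ± 0.12 (adjusted p = 0.0189) and the sorting receptor Sort1 by 0.81 ± 0.20 (adjusted p = 0.0443). The mannose 6-phosphate receptors, named after their values were seen, differed: Igf2r was at 49.3, 69.9 and 268 CPM in deleted 2, 4 and 6, against 24.1 and 33.8 CPM in wild-type 1 and 3 (adjusted p = 0.0343 without deleted 6), and M6pr at 330, 380.4 and 407 CPM in deleted 2, 4 and 6, against 359 and 371 CPM in wild-type 1 and 3 (adjusted p = 0.929).

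Of 18 genes for MiT/TFE factors and the nutrient sensors that control them, 5 were called higher and 0 lower without deleted 6. Of all tested genes 7.89% and 5.07% were. The median log2 fold change of the 18 was 0.64 with all libraries and 0.45 without deleted 6. Fnip2, a partner of folliculin, rose by 1.64 ± 0.23 on the log2 scale in that fit (SE; edgeR adjusted p = 0.00768). The Rag GTPase gene Rragd rose by 1.98 ± 0.27 (adjusted p = 0.00656), and Rptor, a subunit of mTORC1, by 0.95 ± 0.15 (adjusted p = 0.00968). Mitf, named after its values were seen, was at 24.5, 32.3 and 67.3 CPM in deleted 2, 4 and 6, against 12.9 and 12.1 CPM in wild-type 1 and 3, with an adjusted p of 0.0127 without deleted 6. Its relative Tfeb was at 27.4, 36.1 and 77.8 CPM in deleted 2, 4 and 6, against 24.9 and 22.4 CPM in wild-type 1 and 3, and Tfe3 at 82.6, 107 and 141 CPM in deleted 2, 4 and 6, against 74.6 and 75.2 CPM in wild-type 1 and 3. Neither passed in that fit (adjusted p = 0.185 for Tfeb and 0.21 for Tfe3). Mitf is also a mast cell and osteoclast factor. The mast cell markers given above were lowest in deleted 6, where Mitf was highest. In deleted 2 and 4, the deleted libraries of that fit, their sum was 82.0 and 37.6 times the wild-type mean. The part of these cell types in the Mitf level was not tested.

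Inhibitors of lysosomal and granule proteases went both ways, and 1 gene, Slpi, set the direction of their sum. It was 3237, 3063 and 2895 CPM in deleted 2, 4 and 6, against 3972 and 4234 CPM in wild-type 1 and 3. Without Slpi the sum was 2969, 2756 and 2765 CPM in deleted 2, 4 and 6, against 2235 and 2405 CPM in wild-type 1 and 3. Deleted 6 was the lowest library in 10 of the 16 tested and the highest in 6. Of all tested genes 37.9% were lowest and 36.2% highest in it. Of the 16, 12 had a log2 fold change above 0, with a median of 0.65, and of 0.78 without deleted 6. In that fit 7 were called higher and 1 lower, where 7.89% and 5.07% of all tested genes were, and the gene that fell was Slpi. It encodes a secreted inhibitor of neutrophil elastase and cathepsin G and was at 268, 307 and 130 CPM in deleted 2, 4 and 6, against 1738 and 1829 CPM in wild-type 1 and 3. Slpi fell by 2.62 ± 0.17 on the log2 scale without deleted 6 (SE; edgeR adjusted p = 0.000799). Cstb, cystatin B, which blocks cathepsins B, L and S in the cytosol, rose by 1.02 ± 0.24 in that fit (adjusted p = 0.0416), and stood at 415, 668 and 1237 CPM in deleted 2, 4 and 6, against 294 and 244 CPM in wild-type 1 and 3. Serpinb6b, an intracellular serpin, had 2.32 ± 0.64 (adjusted p = 0.0623).

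**Figure D5:**
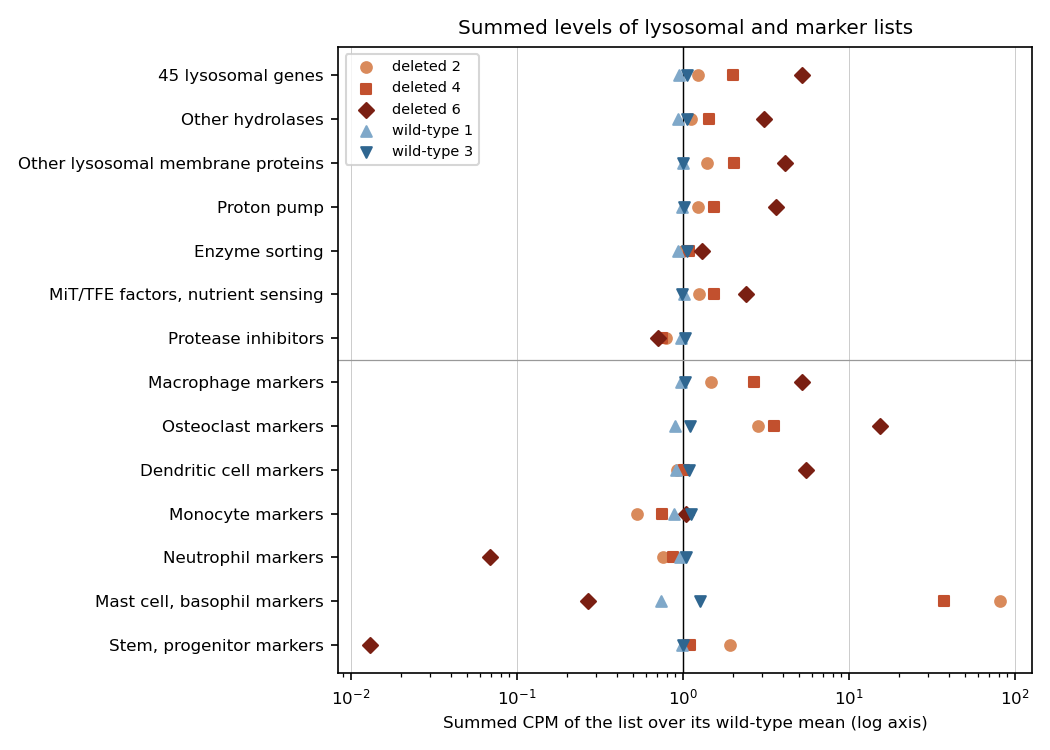
Summed CPM of the 45 lysosomal genes, of related lysosomal lists and of cell type marker lists in each library over the mean of both wild-type libraries (log axis, 1 marker per library). The 45 genes stand at 1.23, 2.00 and 5.23 times that mean in deleted 2, 4 and 6, macrophage markers at 1.48, 2.70 and 5.22 (0.973, 2.08 and 2.65 without Gpnmb, which the list of other membrane proteins holds too), and neutrophil, mast cell and stem cell markers are below 1 in deleted 6.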

How the data were processed

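Libraries were made with SMART-Seq v4 and Nextera XT, which mark neither strand nor molecule, and read as single-end 50-base reads, per the labels' protocols. The genome was mm10 and the tools were STAR, bcl2fastq 1.8.4 and DESeq2 1.12.4, per the submitters' processing notes. How reads were counted is not stated in the sources used here. The authors deposited whole-number read counts per gene and library (46603 genes, 5 rows naming no gene, left out), a normalized signal, found to be the same counts over a size factor for each library, and a table on a log2 scale, which was not used. Of each library's total, 5.89% to 8.09% fell on no feature, 2.36% to 2.78% were ambiguous, 2.48% to 4.13% did not align and 13% to 15.1% aligned to several places.

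Counts were filtered with filterByExpr (16120 genes), scaled with TMM and tested with edgeR 4.0.16's quasi-likelihood test (R 4.3.3) on genotype from the labels, with 3 residual degrees of freedom and Benjamini-Hochberg adjustment over all genes; a call is an adjusted p under 0.05. DESeq2 1.42.0 and limma 3.58.1 were alternatives. Libraries differed by more than counting noise, so none was a copy. Scripts were tested on simulated counts. Exon lengths and coordinates are from GENCODE M21. In that annotation 17 of the 45 genes share exon bases with another gene. The members, lists and tests were chosen with earlier results of these data known. Named with values in every library were the 14 members with the smallest p, the 8 with the highest level per kilobase, and the 4 with the largest and 4 with the smallest ratio of deleted 6 to the highest other library; from other lists, up to 3 genes with the smallest p.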

Additional observations from a re-analysis of the deposited data

How the results depend on the processing

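edgeR with all 5 libraries called 0 genes, and the calls came from other settings. For all genes the counts higher and lower were 163 and 115 with no filter on low counts, 927 and 492 with DESeq2, 1230 and 947 with limma-voom and quality weights, and 211 and 131 in lane 4 only. Leaving out 1 library gave 0 to 1245 higher and 0 to 800 lower, with calls solely without deleted 6. Of the 45 lysosomal genes, DESeq2 called 5 higher and 1 lower, quality weights 10 and 2, lane 4 only 1 higher, and leaving out 1 library 0 to 8 higher and 0 to 2 lower. The genes with every deleted library above both wild-type ones numbered 21 to 35 with 1 library left out, the most without deleted 2, 18 with total gene counts and 19 in the authors' normalized table, an alternative chosen after seeing the data. Those below numbered 3 to 6 with 1 library left out, 10 in lane 4 and 5 with total gene counts. With fewer libraries such a split is easier to reach. Without deleted 6, 21 of the 45 were above (46.7%) and 6 below (13.3%), where 28.8% and 29.4% of all tested genes were. Shares over all genes are not given here for the other settings. Highest in deleted 6 were 41, and 35 with total gene counts. The median log2 fold change of the 45 ran from 0.23 in lane 4 to 1.19 without deleted 2, and the summed log2 ratio from 0.62 in lane 4 to 1.86 without deleted 2.

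Of the 45 fitted log2 fold changes 7 turned sign in some fit, and Ppt1 did so in mean log2 CPM with total gene counts. Ctsh had -0.14 with limma-voom, -0.48 with quality weights, -0.88 in lane 4 and -0.75 to 0.63 with 1 library left out. Gusb had -0.21 in lane 4 and -0.10 to 0.59. Man2b1 had -0.18 with quality weights, -0.48 in lane 4 and -0.26 to 0.72. Naglu had -0.0713, -0.39 and -0.212 to 1.01 in the same settings, and Arsb -0.0821, -0.36 and -0.13 to 0.57. Manba had -0.25 to 0.0795 with 1 library left out, above 0 at 0.034 without deleted 2 and at 0.0795 without wild-type 3. Pla2g15 had -0.11 in lane 4. The cause was not tested. No paired analysis was possible because the groups share no sample number. Each library held at least 37306507 gene counts.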
